A study of Mus musculus with 6 samples.

Results

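Genes that mark fetal-like and regenerating intestinal epithelium were examined in RNA sequencing of mouse jejunal organoids. The organoids carried a floxed Hnf4a, a nuclear receptor gene, and were treated to induce Cre or given vehicle. The genes were a list of 9 symbols, namely Clu, Anxa1, Anxa3, Il1rn, Il33, Msln, Gja1, S100a6 and Spp1, looked up by gene symbol in a table of 18448 genes. Of the 9, 8 had a row and 7 passed the filter on low counts that left 14544 genes for testing. Spp1 had no row and was not analysed here, and Gja1 had a row but too few counts. Each gene with a row had at least 10 counts over the 6 libraries together.

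Organoids in every library came from C57BL/6 jejunum, carried the genotype Villin-CreERT2; Hnf4aflox/flox and grew with 200 ng/mL recombinant mouse Wnt3A until day 2 after the last passage. The 3 4OHT libraries came from organoids exposed for 24 hours to 0.5 µM hydroxytamoxifen (4OHT), the ligand that activates CreERT2, and the 3 DMSO libraries from organoids given the vehicle. The villin promoter drives Cre in intestinal epithelial cells, and the cultures are labelled as epithelial organoids. No library had 4OHT without the floxed gene, so Hnf4a loss cannot be told apart from 4OHT or Cre activity itself. Nothing in the labels tells whether replicates are separate animals or organoid lines. The p-values therefore cover library-to-library spread alone, possibly only technical.

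In the fetal gut, and again in adult epithelium repairing an injury, mouse intestinal cells are known to express a shared set of genes that resting adult crypts keep low. YAP signalling is known to promote much of this set, and Clu marks rare cells that rebuild the crypt after damage in mice. The products include secreted proteins (clusterin from Clu, osteopontin from Spp1), cytokines and a cytokine antagonist (Il33, Il1rn), calcium-dependent membrane-binding and signalling proteins (Anxa1, Anxa3, S100a6), a lipid-anchored surface protein (mesothelin from Msln) and a gap junction channel (connexin 43 from Gja1). Hnf4a is known for maintaining enterocyte identity.

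Hnf4a was lower in each 4OHT library than in any DMSO library, at 436, 424 and 482 CPM in 4OHT replicates 1 to 3, against 839.8, 846 and 1021 CPM in DMSO replicates 1 to 3 (CPM, counts scaled by library sizes that were adjusted with trimmed means of M-values). Its log2 fold change was -1.01 (SE 0.10, edgeR adjusted p = 0.0124). Library totals ran from 31537100 to 40276242 counts. DMSO replicate 3 stood apart: a chi-square comparison of counts over genes gave 55.2 per degree of freedom for DMSO replicates 1 and 3, 50.6 for DMSO replicates 2 and 3 and 6.97 for DMSO replicates 1 and 2, and 13.7 to 27.7 for pairs of 4OHT libraries. The fold changes of the members and of the genes called are therefore given with and without it. The epithelial markers Epcam, Cdh1, Vil1, Krt8, Krt18 and Cdx2 were all present, with a summed level of 11020 to 13397 CPM in 4OHT and 9538 to 12904 CPM in DMSO.

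Promoter sequences were available for 6 of the 9 genes (Anxa1, Il1rn, Il33, Gja1, S100a6 and Spp1) in a RefSeq table on GRCm38.p6, from 250 bases before to 50 bases after each annotated start. There were none for Clu, Anxa3 and Msln. The 4 windows below belong to genes whose levels are described next and are shown because together they include windows with an AP-1 match, with a TEAD match and with neither. Capitals mark matches, on either strand, to the TEAD motif CATTCC, the AP-1 motif TGANTCA or the HNF4 motif CAAAGTC. TEAD factors are the DNA-binding partners of YAP. All are written 5′ to 3′ on the strand of the gene. Il1rn lies at chr2:24336610-24336909 on the plus strand (the window of the first of 3 annotated starts), Anxa1 at chr19:20390622-20390921 on the minus strand, Il33 at chr19:29924863-29925162 on the plus strand (the first of 2 starts) and S100a6 at chr3:90612644-90612943 on the plus strand.
Il1rn: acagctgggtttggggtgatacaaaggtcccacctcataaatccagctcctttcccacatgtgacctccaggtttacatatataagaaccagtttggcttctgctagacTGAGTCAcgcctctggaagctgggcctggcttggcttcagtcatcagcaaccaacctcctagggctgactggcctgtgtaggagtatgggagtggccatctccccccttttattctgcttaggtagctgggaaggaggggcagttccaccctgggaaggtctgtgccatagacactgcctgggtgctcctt
Anxa1: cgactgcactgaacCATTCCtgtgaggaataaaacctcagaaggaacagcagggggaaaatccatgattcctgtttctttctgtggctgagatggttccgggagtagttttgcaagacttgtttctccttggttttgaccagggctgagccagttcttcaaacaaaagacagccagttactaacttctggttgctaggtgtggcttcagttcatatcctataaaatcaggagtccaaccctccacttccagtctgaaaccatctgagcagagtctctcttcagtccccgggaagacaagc
Il33: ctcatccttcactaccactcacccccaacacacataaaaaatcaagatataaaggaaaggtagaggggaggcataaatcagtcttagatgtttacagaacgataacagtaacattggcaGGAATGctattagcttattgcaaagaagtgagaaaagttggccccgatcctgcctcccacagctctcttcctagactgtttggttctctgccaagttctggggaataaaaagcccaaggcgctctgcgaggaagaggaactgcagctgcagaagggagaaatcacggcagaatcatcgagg
S100a6: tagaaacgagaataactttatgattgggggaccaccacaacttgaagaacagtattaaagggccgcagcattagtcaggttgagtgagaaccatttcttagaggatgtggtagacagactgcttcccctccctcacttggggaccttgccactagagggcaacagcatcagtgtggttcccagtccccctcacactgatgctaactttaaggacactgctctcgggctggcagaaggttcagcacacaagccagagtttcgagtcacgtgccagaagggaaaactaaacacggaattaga

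The Il1rn window held 1 AP-1 match, beginning at base -141 from the start site, the Anxa1 window 1 TEAD match at -236 and the Il33 window 1 TEAD match at -131, while the S100a6 window held none of the motifs. Over the 10 windows of the 6 genes, 4 held the TEAD motif, 2 the AP-1 motif and 0 the HNF4 motif. The TEAD matches were in windows of Anxa1, Il33 (both starts) and Il1rn (the most downstream start), and the AP-1 matches in windows of Il1rn and Gja1. No window held more than 1 match, so no matches overlap each other. The windows of the most downstream starts of Il1rn overlap. Among all 32851 promoter windows of the same length, 14.7% held the TEAD motif, 7.81% the AP-1 motif and 4.44% the HNF4 motif.

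As a group, the 7 tested genes were higher on average after 4OHT, but none was called at an adjusted p under 0.05. The log2 fold change was above 0 for 7 of 7, with a median of 0.65, beside a median of 0 (-0.004) over all tested genes. By edgeR 0 of 7 were called higher, where 0.701% of all tested genes were, and 3 (Il1rn, Msln and Anxa3) were higher at an unadjusted p under 0.05, where 8.65% of all tested genes were. DESeq2 called 2 higher (Il1rn and Msln), where it called 3.41% of all genes, and limma-voom called 0. Adding the replicate number to the model as a block called 0 of 7 higher, where it called 3.99% of all genes. The 4OHT and DMSO libraries did not overlap for 6 of 7 genes, beside 12.5% of all tested genes that had every 4OHT library above every DMSO library. Leaving out DMSO replicate 3 could not change this count, because it was the lowest DMSO library for each of the 7 genes. The share of all tested genes was then 19%.

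**Figure D1:**
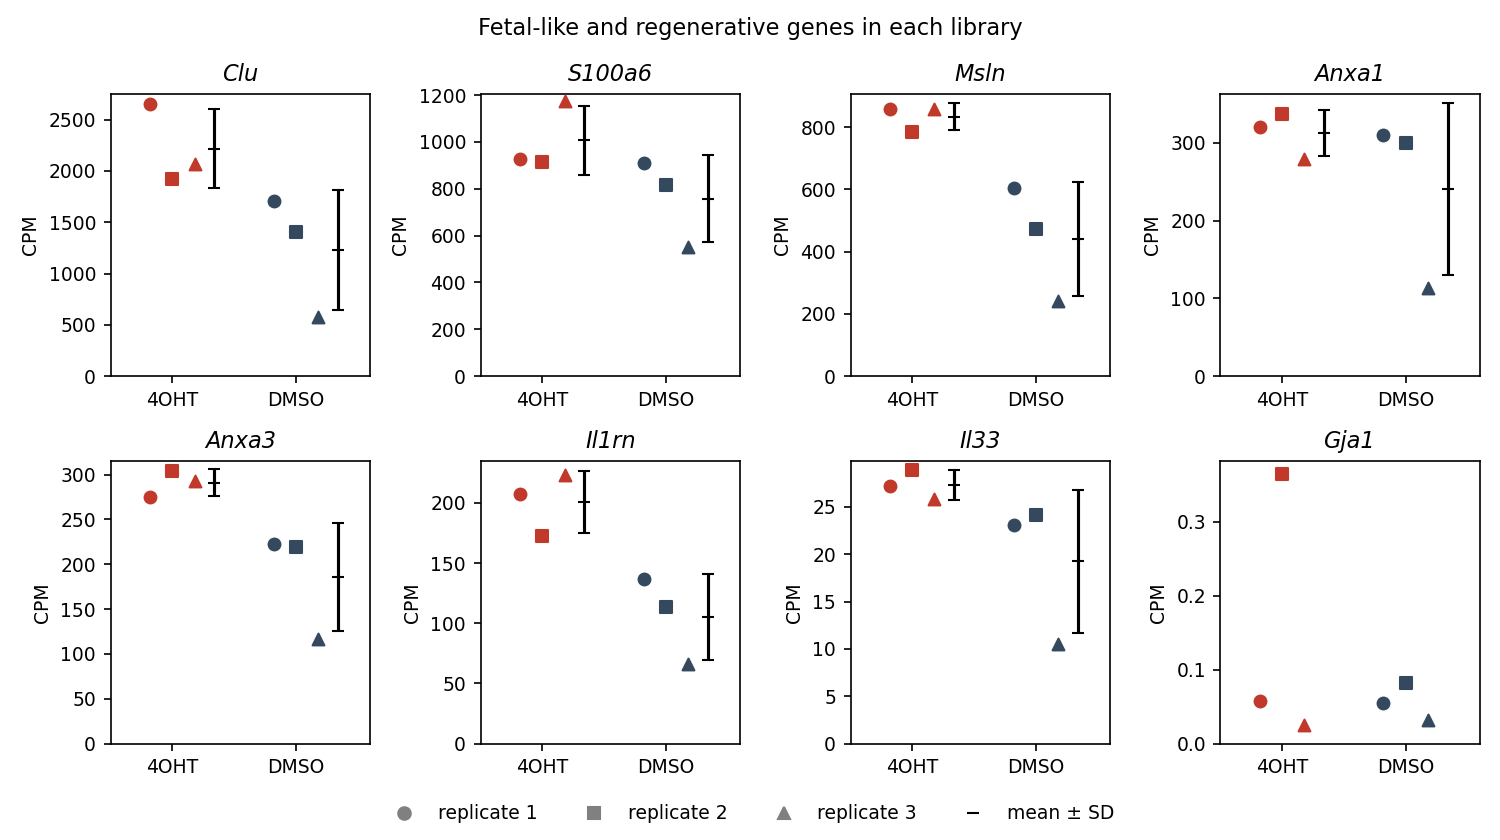
Level (CPM, linear axes from 0) of 8 genes in each library, with 4OHT libraries left of DMSO libraries, symbols for replicates 1 to 3 and bars for mean ± SD (n = 3). DMSO replicate 3 is the lowest library for each of the 7 tested genes, and Gja1, drawn without a mean, is near 0 except in 4OHT replicate 2.

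Il1rn (ENSMUSG00000026981, chromosome 2 from 24336853 to 24351494 in GRCm38) encodes the secreted antagonist that occupies the interleukin-1 receptor without signalling. It measured 208, 173 and 223 CPM in 4OHT replicates 1 to 3, against 137, 113 and 66.4 CPM in DMSO replicates 1 to 3. The groups did not overlap, and the lowest 4OHT library was 1.26 times the highest DMSO library. The means were 201 ± 25.7 CPM in 4OHT and 105 ± 35.8 CPM in DMSO (SD, n = 3 each), with a log2 fold change of 0.93 (SE 0.247, edgeR adjusted p = 0.145). Without DMSO replicate 3 the log2 fold change was 0.68 (SE 0.126) and passed the test (edgeR adjusted p = 0.0475). Il1rn is the gene whose first promoter window carries the AP-1 match shown above.

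Il33, the other member of the interleukin-1 family, encodes a nuclear cytokine that damaged epithelium releases as an alarm signal. Its gene (ENSMUSG00000024810) lies on chromosome 19 from 29925114 to 29960718. Il33 measured 27.2, 28.9 and 25.8 CPM in 4OHT replicates 1 to 3, against 23.0, 24.1 and 10.5 CPM in DMSO replicates 1 to 3. The 4OHT libraries lay close together and just above DMSO replicates 1 and 2, and DMSO replicate 3 lay far below them. The log2 fold change was 0.50 (SE 0.282, edgeR adjusted p = 0.461), and 0.20 (SE 0.075, edgeR adjusted p = 0.251) without DMSO replicate 3.

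Msln (ENSMUSG00000063011, chromosome 17 from 25748613 to 25754378) encodes mesothelin, a surface glycoprotein best known from mesothelium. It measured 859, 786 and 859 CPM in 4OHT replicates 1 to 3, against 606, 472 and 242 CPM in DMSO replicates 1 to 3. The lowest 4OHT library was 1.30 times the highest DMSO library, the widest such gap among the 7 genes. The means were 835 ± 42.3 CPM in 4OHT and 440.1 ± 184 CPM in DMSO (SD, n = 3 each), with a log2 fold change of 0.92 (SE 0.295, edgeR adjusted p = 0.212). Without DMSO replicate 3 the difference was smaller, at 0.62 (SE 0.112), and passed the test (edgeR adjusted p = 0.0441). Of the mesothelial markers, Upk3b averaged 2.85 ± 1.10 CPM in 4OHT and 2.25 ± 2.66 CPM in DMSO (SD, n = 3 each), with its highest library in DMSO replicate 3, where Msln was lowest. Lrrn4 reached at most 0.222 CPM, Krt19, which gut epithelium also expresses, was at 3414 CPM or more in every library, and Wt1 had no row and was not analysed here.

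Clu (ENSMUSG00000022037, chromosome 14 from 65968483 to 65981547) encodes clusterin, a secreted chaperone. It measured 2650, 1922 and 2069 CPM in 4OHT replicates 1 to 3, against 1709.8, 1404 and 577 CPM in DMSO replicates 1 to 3. The groups did not overlap, and the spread within DMSO was the widest of the 7 genes in CPM. The means were 2214 ± 385 CPM in 4OHT and 1230.2 ± 586 CPM in DMSO (SD, n = 3 each), with a log2 fold change of 0.85 (SE 0.366, edgeR adjusted p = 0.341). Without DMSO replicate 3 it was 0.50 (SE 0.153, edgeR adjusted p = 0.172).

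The annexins Anxa3 and Anxa1, which bind membrane phospholipids when calcium rises, are described in turn. Anxa3 (ENSMUSG00000029484, chromosome 5 from 96793339 to 96845966) measured 275, 304 and 293 CPM in 4OHT replicates 1 to 3, against 222, 219 and 116 CPM in DMSO replicates 1 to 3. Its groups did not overlap, and DMSO replicates 1 and 2 were nearly equal. The log2 fold change of Anxa3 was 0.65 (SE 0.231, edgeR adjusted p = 0.257), and 0.39 (SE 0.062, edgeR adjusted p = 0.0324) without DMSO replicate 3.

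Anxa1 (ENSMUSG00000024659, chromosome 19 from 20373428 to 20390944), whose product also acts outside the cell on formyl peptide receptors to dampen inflammation, was the 1 tested gene with overlapping groups. It measured 321, 338 and 279 CPM in 4OHT replicates 1 to 3, against 309.9, 299 and 113 CPM in DMSO replicates 1 to 3. DMSO replicates 1 and 2 lay inside the range of the 4OHT libraries. The log2 fold change was 0.38 (SE 0.345, edgeR adjusted p = 0.667), and 0.03 (SE 0.0851, edgeR adjusted p = 0.90) without DMSO replicate 3.

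S100a6 (ENSMUSG00000001025, chromosome 3 from 90612882 to 90624181) encodes a small calcium-binding protein of the EF-hand type. It measured 928, 916 and 1176 CPM in 4OHT replicates 1 to 3, against 909, 816 and 549 CPM in DMSO replicates 1 to 3. The lowest 4OHT library was only 1.01 times the highest DMSO library, so the groups barely separated. The log2 fold change was 0.41 (SE 0.194, edgeR adjusted p = 0.386), and 0.22 (SE 0.123, edgeR adjusted p = 0.455) without DMSO replicate 3.

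Gja1 (ENSMUSG00000050953, chromosome 10 from 56377330 to 56402513), the connexin 43 gene, had 2, 13 and 1 counts in 4OHT replicates 1 to 3, against 2, 3 and 1 counts in DMSO replicates 1 to 3. Of its 22 counts 13 were in 4OHT replicate 2, and no fold is given because every other library was at or under 3 counts. A difference in Gja1 was not detectable at this depth.

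**Figure D2:**
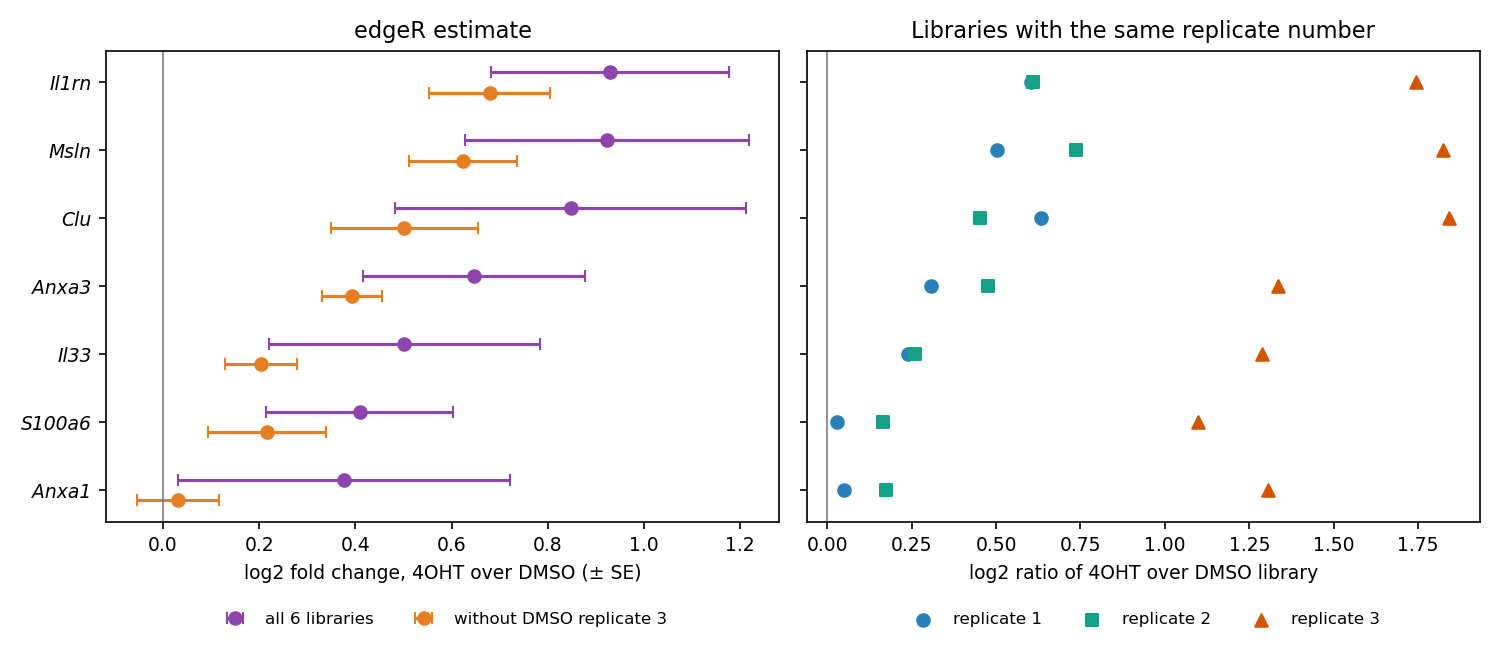
Left, edgeR log2 fold change (4OHT over DMSO, ± SE) of the 7 tested genes with all 6 libraries and without DMSO replicate 3. Right, log2 ratio of the 4OHT library over the DMSO library with the same replicate number. The estimate is nearer 0 without DMSO replicate 3 for each gene, and the ratio at replicate 3 lies to the right of the ratios at replicates 1 and 2 for each gene.

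The size of the difference depended on the replicate number. Between libraries with the same number, the log2 ratio of 4OHT over DMSO was at least 1 for 0 of 7 genes at replicate 1, for 0 of 7 at replicate 2 and for 7 of 7 at replicate 3, beside 2.16%, 2.07% and 3.93% of all tested genes at replicates 1, 2 and 3. At replicate 1 the ratios of the 7 genes ran from 0.03 (S100a6) to 0.63 (Clu), at replicate 2 from 0.17 (S100a6 and Anxa1) to 0.74 (Msln), and at replicate 3 from 1.10 (S100a6) to 1.84 (Clu). Each was above 0. Il1rn had 0.60, 0.61 and 1.74 and Msln 0.50, 0.74 and 1.82 at replicates 1 to 3.

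DMSO replicate 3 carried low levels of the whole group, whereas 4OHT replicate 3 did not. On the log2 CPM scale, relative to the average of the other two 4OHT libraries, 4OHT replicate 3 differed by -0.24 (Anxa1) to 0.35 (S100a6), and 3 of 7 genes were lower. Relative to the other two DMSO libraries, DMSO replicate 3 was lower for 7 of 7 genes, with differences of -1.43 for Anxa1, -1.42 for Clu, -1.16 for Il33, -1.14 for Msln, -0.92 for Anxa3, -0.90 for Il1rn and -0.65 for S100a6. Of the 7 genes, 4 were at least 1 log2 unit lower in DMSO replicate 3, beside 2.48% of all tested genes. Hnf4a was highest in the same library. Among the 4OHT libraries Hnf4a was also highest in replicate 3 (482 CPM, against 436 and 424 CPM in replicates 1 and 2), where the members were not lower as a group. A link between Hnf4a and the members within a group was not tested. The part of DMSO replicate 3 in the group differences is given by the fits without it.

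**Figure D3:**
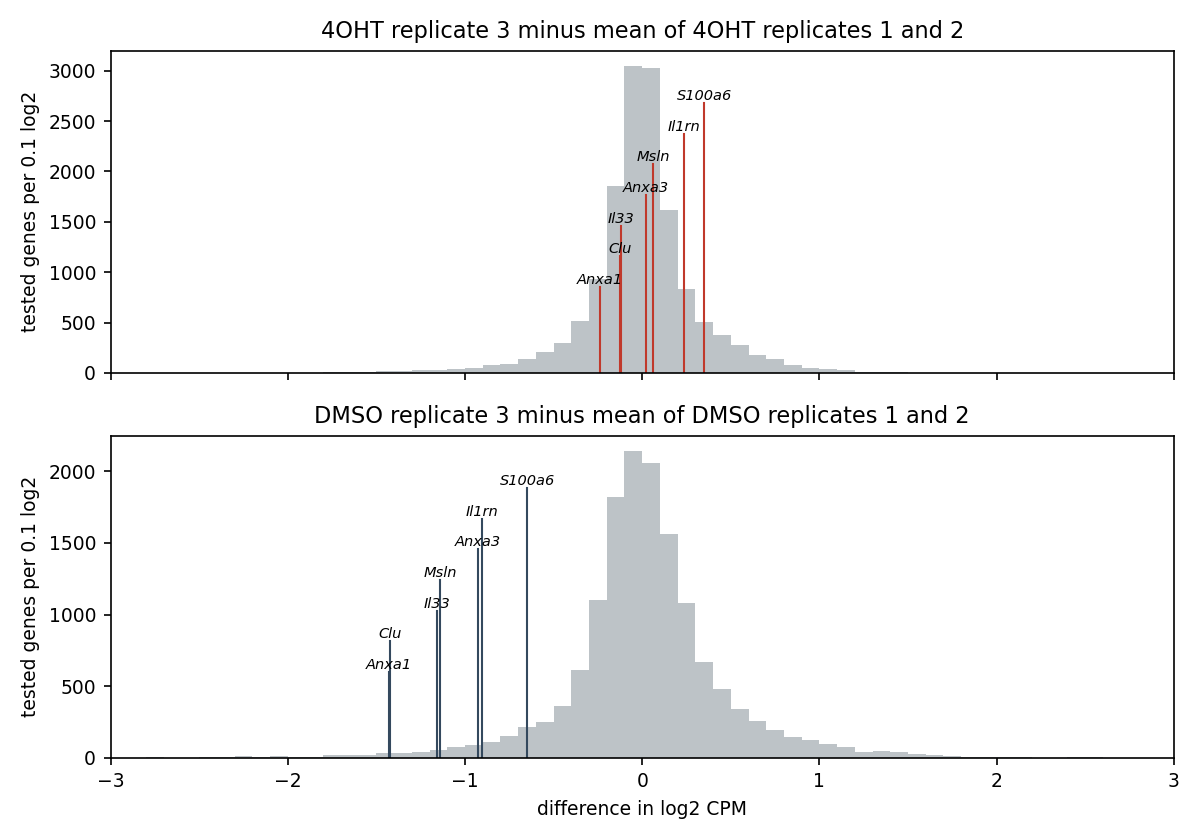
Histograms over the tested genes of replicate 3 minus the mean of replicates 1 and 2 (log2 CPM), for 4OHT above and DMSO below, with lines at the 7 tested fetal-like and regenerative genes and the axis drawn from -3 to 3. In 4OHT the lines fall between -0.24 and 0.35, and in DMSO all fall between -1.43 and -0.65.

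Leaving out DMSO replicate 3 made the differences smaller and the calls more numerous. In that fit 3 of 7 genes rose (Anxa3, Il1rn and Msln), where 1.71% of all genes were called higher, and the median log2 fold change of the 7 was 0.39. Without replicate 3 of both groups the same 3 genes were called higher, where 2.59% of all genes were, with log2 fold changes of 0.39 (Anxa3), 0.60 (Il1rn) and 0.60 (Msln) and edgeR adjusted p of 0.0256, 0.038 and 0.0412, in that order. Adding the replicate block to those 4 libraries called 5 of 7 higher (Clu, Il33, Anxa3, Il1rn and Msln), where 10.1% of all genes were. That last fit has a single residual degree of freedom per gene, so it borrows nearly all of its error from other genes. Anxa1 and S100a6 were called in none of these fits. The authors' deposited log2 fold changes were close to those of the main fit with all 6 libraries (0.931 for Il1rn and 0.848 for Clu). Their edgeR adjusted p was 0.00049 for Il1rn, 0.0043 for Msln, 0.03 for Anxa3 and 0.062 for Clu. It was 0.24 for S100a6, 0.37 for Il33, 0.76 for Anxa1 and 0.8 for Gja1. Their DESeq adjusted p was 0.02 for Il1rn, 0.031 for Msln, 0.18 for Anxa3, 0.45 for Clu and higher for the other members. The share of all genes that passed by the authors' values is not given here.

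The 7 genes covered a wide range of levels, and their order was the same in the 4OHT and DMSO means. Per kilobase of merged exons in GENCODE mouse release 21, S100a6 averaged 736 ± 107 CPM per kilobase in 4OHT and 555 ± 137 in DMSO, and Clu averaged 644 ± 112 in 4OHT and 358 ± 170.5 in DMSO (SD, n = 3 each). Msln, Anxa1, Anxa3, Il1rn and Il33 followed in this order, down to 9.46 ± 0.539 CPM per kilobase in 4OHT and 6.67 ± 2.62 in DMSO for Il33. Libraries of neighbours in this order overlapped only for S100a6 and Clu in 4OHT. In DMSO they overlapped for S100a6 and Clu, Clu and Msln, Msln and Anxa1, and Anxa1 and Anxa3. These overlaps compare different libraries and appeared only with DMSO replicate 3 counted. Within each single DMSO library the order was the same. In 4OHT replicate 1, Clu (771 CPM per kilobase) stood above S100a6 (679). By mean level per kilobase, S100a6 and Clu stood at percentiles 99.7 and 99.6 of 14493 genes, Msln at 98.7, Anxa1 at 96.5, Anxa3 at 94.4, Il1rn at 85.5 and Il33 at 59.1. Merged exons include rarely used ones, which lowers a level per kilobase for genes with long alternative exons.

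Across the 6 libraries the genes varied together. Pearson's r of log2 CPM between members, given as a description over 6 libraries that share the low DMSO replicate 3, ran from 0.81 (Anxa1 and Il1rn) to 0.99 (Il1rn and Msln). By a rule that takes the highest r among 9127 genes outside the list that averaged 10 CPM or more, the pattern of Ctsl was among the 2 most like Clu. The patterns most like Msln were those of AA986860 and Ablim1, and most like Il1rn those of Paqr8 and Mapk11. Those most like Anxa3 were Syt16 and Ctsh, most like Anxa1 Slc25a48 and Cables2, most like Il33 Fam220a and Gspt1, and most like S100a6 Gtf2f1 and Rnf39. All of these r lay between 0.9898 and 0.9995. From 50 (S100a6) to 294 (Clu) genes had an r above 0.95 with a given member, so the named genes are few among many.

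Other genes known from fetal intestinal spheroids or regenerating epithelium were read from a list of 32, of which 30 were tested. Of the 30, 1 rose and 0 fell without the replicate block, beside 0.701% of all tested genes called higher, and their median log2 fold change was 0.61. With the replicate block 9 rose and 0 fell (3.99% higher and 3% lower over all tested genes). DESeq2 called 6 higher (3.41% over all tested genes). Without DMSO replicate 3, edgeR called 3 higher (Igf2bp1, Trim29 and Vsig1, beside 1.71% over all tested genes), with a median log2 fold change of 0.36 over the 30. The gene that passed both fits was Igf2bp1, an RNA-binding protein gene of fetal tissues, at 1.20, 1.69 and 1.89 CPM in 4OHT replicates 1 to 3, against 0.417, 0.490 and 0.292 CPM in DMSO replicates 1 to 3 (log2 fold change 1.97, SE 0.28, edgeR adjusted p = 0.0348). Its call was kept without DMSO replicate 3 (edgeR adjusted p = 0.0378) and lost without any one of the other 5 libraries (edgeR adjusted p from 0.0917 to 0.126).

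The genes that passed with the block included Ly6a, which encodes the surface antigen Sca-1, widely used to mark this state in mice. Ly6a was at 324, 433 and 312 CPM in 4OHT, against 208, 222 and 95.3 CPM in DMSO (log2 fold change 1.10 with the block, edgeR adjusted p = 0.0342). The groups did not overlap, and replicate 3 was the lowest library of each group. Without DMSO replicate 3, and without the block, it was 0.72 (edgeR adjusted p = 0.0555). Ly6a belongs to a family with near-identical copies, between which reads could have been shared.

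Also among them were Trim29 (log2 fold change 2.13 with the block), Ctse, a gastric and fetal-gut aspartic protease gene (1.92), Anxa8 (1.79), Sprr1a, a cornified envelope gene (1.67), Vsig1 (1.21) and the laminin chain gene Lamb3 (0.52), with edgeR adjusted p from 0.017 to 0.0446. In the fit without DMSO replicate 3, which has no block, Trim29 (1.71, edgeR adjusted p = 0.0496) and Vsig1 (0.97, edgeR adjusted p = 0.0241) passed. Ctse (1.46, edgeR adjusted p = 0.222), Anxa8 (1.28, edgeR adjusted p = 0.0596), Sprr1a (2.09, edgeR adjusted p = 0.111) and Lamb3 (0.29, edgeR adjusted p = 0.382) did not. Single 4OHT libraries also moved some of the estimates made without the block: Ctse was 1.25 without 4OHT replicate 1 and 1.88 with all libraries, Lamb3 0.33 without 4OHT replicate 1 and 0.50 with all, and Sprr1a 1.20 without 4OHT replicate 3 and 1.83 with all. Among these, Sprr1a went against the pattern of the 7 members at replicate 3: it was highest in replicate 3 of both groups, at 64.1, 33.2 and 129 CPM in 4OHT, against 19.0, 16.4 and 28.3 CPM in DMSO. Of the 30 genes, 28 were lower in DMSO replicate 3 than in DMSO replicates 1 and 2, with a median of -0.90, beside 49.6% of all tested genes, and 13 were lower in 4OHT replicate 3, beside 50.7%. An abundant gene of the list that did not pass in these fits was Krt7, at 3848, 2803 and 3526 CPM in 4OHT, against 2814, 2259 and 1306 CPM in DMSO (log2 fold change 0.67, edgeR adjusted p = 0.309).

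**Figure D4:**
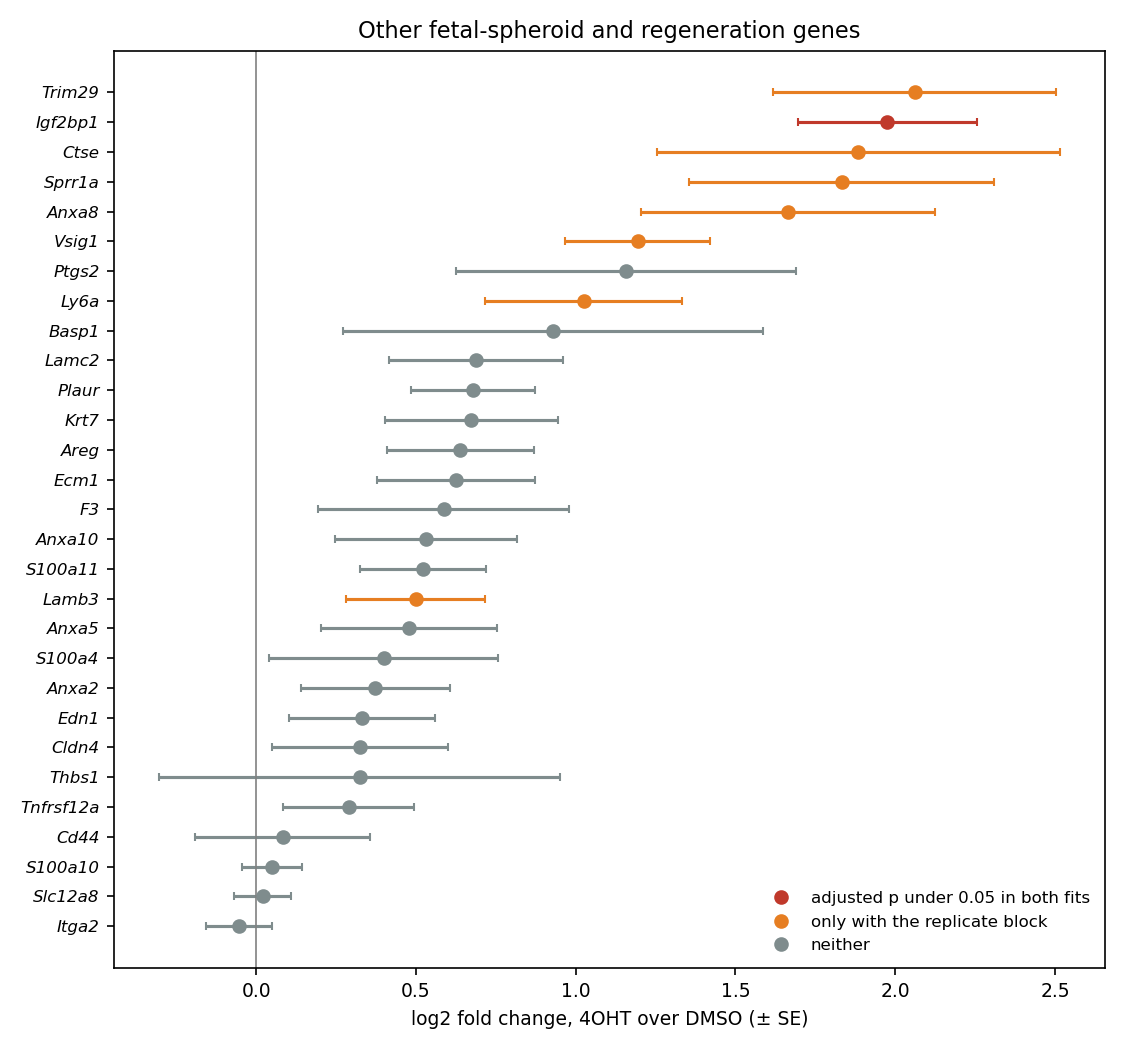
Log2 fold change (4OHT over DMSO, ± SE, edgeR without the replicate block) of other tested genes known from fetal spheroids or regeneration, coloured by the fits in which the adjusted p was under 0.05. All points but that of Itga2 lie above 0, and Igf2bp1 is the 1 that passed in both fits.

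In the families to which the members belong, counted with the members themselves, few genes passed the test. Of 12 tested annexins 0 were called without the block, where 0.701% of all tested genes were called higher. With the block 2 rose (3.99% over all tested genes), Anxa6 (log2 fold change 1.24, edgeR adjusted p = 0.0105) and Anxa8. At an unadjusted p under 0.05, 4 annexins were higher (8.65% over all tested genes). Anxa6 was 0.91 without DMSO replicate 3 and without the block (edgeR adjusted p = 0.0531). Anxa4, known from secretory and absorptive gut epithelium, was at 1286, 1306 and 1402 CPM in 4OHT, against 1336, 1373 and 1520.3 CPM in DMSO (-0.08, edgeR adjusted p = 0.681). Of 12 tested S100 genes 0 were called without the block. An unadjusted p under 0.05 was reached by 3 higher and 1 lower (8.65% and 6.35% over all tested genes). With the block S100a16 rose (0.66, edgeR adjusted p = 0.0197). S100g, which encodes the calcium-binding protein calbindin-D9k of enterocytes, fell with the block (-1.11, edgeR adjusted p = 0.00863). With the block 3.99% of all tested genes were called higher and 3% lower. S100g was at 3.78, 3.82 and 5.69 CPM in 4OHT, against 8.12, 7.95 and 12.7 CPM in DMSO, with replicate 3 highest in each group. Without DMSO replicate 3 and without the block, S100a16 was 0.64 (edgeR adjusted p = 0.0798) and S100g -0.86 (edgeR adjusted p = 0.0867).

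Of 10 tested genes of the interleukin-1 family and its receptors, 1 rose without the block (0.701% over all tested genes). With the block 2 rose (3.99% over all tested genes). An unadjusted edgeR p under 0.05 was reached by 3 higher and 1 lower (8.65% and 6.35% over all tested genes). Il1r1, the signalling receptor that the product of Il1rn blocks, was at 2.86, 3.26 and 5.11 CPM in 4OHT, against 0.778, 0.544 and 0.910 CPM in DMSO (log2 fold change 2.34, edgeR adjusted p = 0.0289). Its groups were far apart in every replicate, and DMSO replicate 3 was the highest DMSO library, unlike for the 7 members. The call was kept without DMSO replicate 3 (2.50, edgeR adjusted p = 0.0232) and lost without any one of the other 5 libraries (edgeR adjusted p from 0.0774 to 0.110). With the block Il18, a cytokine made by gut epithelium, also rose (0.59, edgeR adjusted p = 0.0132), and without DMSO replicate 3 and the block it was 0.64 (edgeR adjusted p = 0.0556). Il1rl1, which encodes the receptor for interleukin-33, had no row and was not analysed here.

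Of 5 tested connexins, 0 were called by edgeR without the block, where 0.701% of all tested genes were called higher. At an unadjusted p under 0.05, 2 were higher (8.65% over all tested genes). Gjb1, the connexin with the highest mean level in CPM, was at 68.0, 49.1 and 77.0 CPM in 4OHT, against 54.8, 46.9 and 69.8 CPM in DMSO (log2 fold change 0.18, edgeR adjusted p = 0.722), with overlapping groups. Of 8 tested receptors and partners of the secreted and surface members, 0 were called in either direction with or without the block, and 2 were higher at an unadjusted p under 0.05 (Tjp1 and Vldlr, the second named after its values were seen, against the same 8.65%). Cd44, which encodes a receptor for osteopontin, was at 208, 198 and 142 CPM in 4OHT, against 217, 195 and 105 CPM in DMSO (log2 fold change 0.08, edgeR adjusted p = 0.921).

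Markers of cell types outside epithelium, leaving aside the mesothelial list given with Msln, were low in all libraries. Of 8 mesenchymal markers 4 had a row, with a summed level of 5.87 to 8.41 CPM in 4OHT and 5.17 to 9.42 CPM in DMSO, most of it Vim. Of 7 immune markers 4 had a row, with sums of 5.33 to 6.69 CPM in 4OHT and 4.65 to 5.43 CPM in DMSO, and the pan-leukocyte gene Ptprc reached at most 0.126 CPM in 4OHT and 0.0817 CPM in DMSO. Sums were at most 0.957 CPM for endothelial markers (2 of 4 with a row), 0.191 CPM for smooth muscle markers (2 of 5) and 1.35 CPM for neural and glial markers (1 of 4). Squamous or forestomach keratins and Trp63 (5 of 5 with a row) had sums of 196 to 265 CPM in 4OHT and 45.3 to 77.4 CPM in DMSO, nearly all of it Krt4, which rose (log2 fold change 1.90, edgeR adjusted p = 0.0205). The Krt4 call was kept without DMSO replicate 3 (1.69, edgeR adjusted p = 0.00543) and lost without any one of the other 5 libraries (1.82 to 2.03, edgeR adjusted p from 0.0645 to 0.0988). Krt13, at most 0.579 CPM, was not called in the main fit (edgeR adjusted p = 0.0797). It passed with the block (2.33, edgeR adjusted p = 0.0404) and without DMSO replicate 3 (3.12, edgeR adjusted p = 0.0301). DMSO replicates 1 and 2, at 0.0556 and 0.0544 CPM, held under 3 counts of Krt13, so the size of these folds is uncertain. Krt5 (edgeR adjusted p = 0.446) and Krt14 (edgeR adjusted p = 0.448), the basal squamous keratins, had overlapping groups and reached at most 2.58 CPM, and Trp63, not tested, was at most 0.13 CPM. The part of squamous-type cells in the values of Sprr1a, Trim29 and the members was not tested. Epcam fell in the fit with the block (-0.27, edgeR adjusted p = 0.0446), and without DMSO replicate 3 and the block it was -0.28 (edgeR adjusted p = 0.116). In these bulk libraries, fewer cells that express a gene and less RNA of it per cell cannot be told apart.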

How the data were processed

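Poly(A) RNA of jejunal organoids was sequenced in 6 directional libraries, with 250 ng of total RNA per library, per the labels' protocols. STAR 2.4.0f1, bcl2fastq 1.8.4 and the build GRCm38 are named in the submitters' processing notes. The counting program and its strand setting are not given in the sources used here, so reads of overlapping genes cannot be told apart. The authors deposited raw counts per gene and library, used for every test. A normalised score rounded by the authors was also deposited and not used. The authors' log2 fold changes and p-values, from DESeq and edgeR per the file headers, are quoted only where named.

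Analysis used R 4.3.3. Genes were kept by filterByExpr (14544 of 18448, holding at least 99.9% of counts), scaled by TMM and tested, two-sided, 4OHT over DMSO, by the quasi-likelihood F test of edgeR 4.0.16 across all genes with Benjamini-Hochberg adjustment, called under 0.05. Alternatives were DESeq2 1.42.0, limma-voom (limma 3.58.1), other scalings and filters, the replicate block and left-out libraries. The fits were also run on simulated counts that held no outlying library and no pairing of replicates. That run cannot show how the fits behave with a library like DMSO replicate 3. Deviations of same-numbered libraries from their group means correlated at 0.30, 0.33 and 0.43 over 14544 genes. On that basis the replicate number was treated as a pairing in the fits with the block only. The labels do not state such a pairing, and the main fit had no block. Members and lists were chosen with earlier results of these data known. All members were named, with list genes called in either fit and up to 4 abundant others. Counting error limits genes under 3 counts, 0.0755 to 0.0975 CPM. Some genes that these rules select are not reported here.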

Additional observations from a re-analysis of the deposited data

How the results depend on the processing

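Over the 7 tested members, the sign of the log2 fold change stayed above 0 in each of the 15 alternatives. The count of members called higher, 0 in the main fit, was 2 with DESeq2, 3 leaving out replicate 3 of both groups, and 5 with the replicate block leaving out replicate 3 of both groups, a setting chosen after seeing the data. Leaving out 1 library at a time gave 0 to 3 members, and 3 only without DMSO replicate 3. The number of genes called, 132 in the main fit, was 60 with the filter at 10 CPM, 762 with DESeq2, 1017 with the replicate block, 601 leaving out replicate 3 of both groups and 2678 when the block was added to that, and ran from 4 to 340 when 1 library was left out. With all 6 libraries, the block changed the calls of list genes named above and of no member. Without replicate 3 of both groups, adding the block also called Clu and Il33. RLE factors, library totals, limma-voom and no filter left both counts within 1.5 times. Hnf4a kept its fold change (-0.98 to -1.07) without any one library other than DMSO replicate 3, while its edgeR adjusted p was 0.0572 to 0.0951, and without DMSO replicate 3 it was -0.92 (0.00543). The causes were not tested. The tested members, with 324 counts or more in each library, are limited by the spread between libraries rather than depth, and Gja1 by depth.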
